A study of Mus musculus with 6 samples.

Results

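Mitochondrial oxidative phosphorylation is carried out by 5 protein complexes of the inner mitochondrial membrane, and the data below concern the nuclear genes of their subunits. A gene was a member if a probe set (a group of short probes for 1 transcript) carried its symbol alone and the symbol began with Nduf and a subunit letter and number (complex I), was Sdha to Sdhd (complex II), or began with Uqcr (complex III), Cox4 to Cox8 (complex IV) or Atp5 (complex V). The rule found 81 genes among 18193 genes with such a probe set: 35 of complex I, 4 of complex II, 8 of complex III, 17 of complex IV and 17 of complex V. Where a gene had several probe sets, the 1 with the highest mean signal over the 6 arrays stood for it. A further 9 probe sets that name a matching gene together with another gene were left out.

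RNA of 6 mouse samples was measured on 1 Affymetrix array each. 3 samples were granulosa cell tumors, each from a mouse with mutant Smad1, Smad5 and Smad8 (now Smad9), the transcription factors that act downstream of bone morphogenetic protein receptors; the series describes these tumors as independent, and their labels name no treatment. The other 3 were isolated granulosa cells of wild-type C57BL/6J;129S5/SvEvBrd females aged 21 days, each a pool of 2 to 3 animals that had received pregnant mare serum gonadotropin (PMSG), which makes follicles grow, into the abdomen 44 to 46 hours before. For the tumor mice, the sources used here give neither the alleles, nor any promoter driving a recombinase, nor strain, sex or age. Tumor tissue was thus set against isolated cells, and priming, tissue processing, the signal software (GCOS for tumors, MAS5 for wild type) and genotype cannot be told apart.

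The respiratory chain takes electrons from NADH at complex I and from succinate at complex II, passes them through coenzyme Q, complex III and cytochrome c to complex IV, and reduces oxygen there. Complexes I, III and IV pump protons, and complex V, the ATP synthase, uses the proton gradient to make ATP. Granulosa cells, the somatic cells around the oocyte, also use electrons in mitochondria for the first step of steroid synthesis. All subunits of complex II are nuclear, whereas the other complexes also contain subunits encoded by mitochondrial DNA, which the rule did not select. Several complex IV subunits exist as paralogs, a form present in most tissues and a form restricted to muscle, testis, lung or other tissues.

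Most subunit genes did not pass the test between tumors and wild-type granulosa cells. Of the 81 members, 78 reached a signal of 100 on at least 3 arrays and were tested with limma over all 11602 genes that did so. 10 were lower in tumors, 1 was higher and 67 did not pass a Benjamini-Hochberg adjusted p of 0.05. Over all genes tested, 12.6% were lower and 14.5% higher, so the 12.8% of members that were lower is near the background, and the 1.28% that were higher is below it. Grouped by symbol, the lower genes were Ndufs4, Ndufc1 and Ndufa4 of complex I, Uqcrq and Uqcr11 of complex III, Cox4i2, Cox7a1, Cox7c and Cox8a of complex IV and Atp5mpl of complex V. Ndufa4 is counted under complex I by its symbol, although it is now known to be part of complex IV. Cox4i2 is counted among the 10 although it reached a signal of 100 in wild type alone. The higher gene was Cox6b2 of complex IV.

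Changes are given as log2 fold changes of signal + 32, tumors minus wild type, which understate the change of dim genes. For 66 of the 78 members (84.6%) the 95% interval lay inside a 2-fold change in either direction, against 59.5% of all genes tested. The estimate itself lay within 0.5 of zero in 66 members (84.6%), against 61.0% of all genes. The median over the members was -0.16 (from -2.69 for Cox4i2 to 0.80 for Cox6b2), beside -0.00489 over all genes tested, and 53 of the 78 estimates were negative. The members were measured by bright probe sets, with a median signal of 5386 against 759 over all genes. Among the 2337 genes with a mean signal of at least 2000, 64.9% lay within 0.5 of zero, against 62 of 70 members (88.6%) above that signal. In that bright range 7 of 70 members were lower (10%, against 14.1% of all bright genes) and 0 higher (against 15.7%), and the median was -0.16 against 0.00384.

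**Figure D1:**
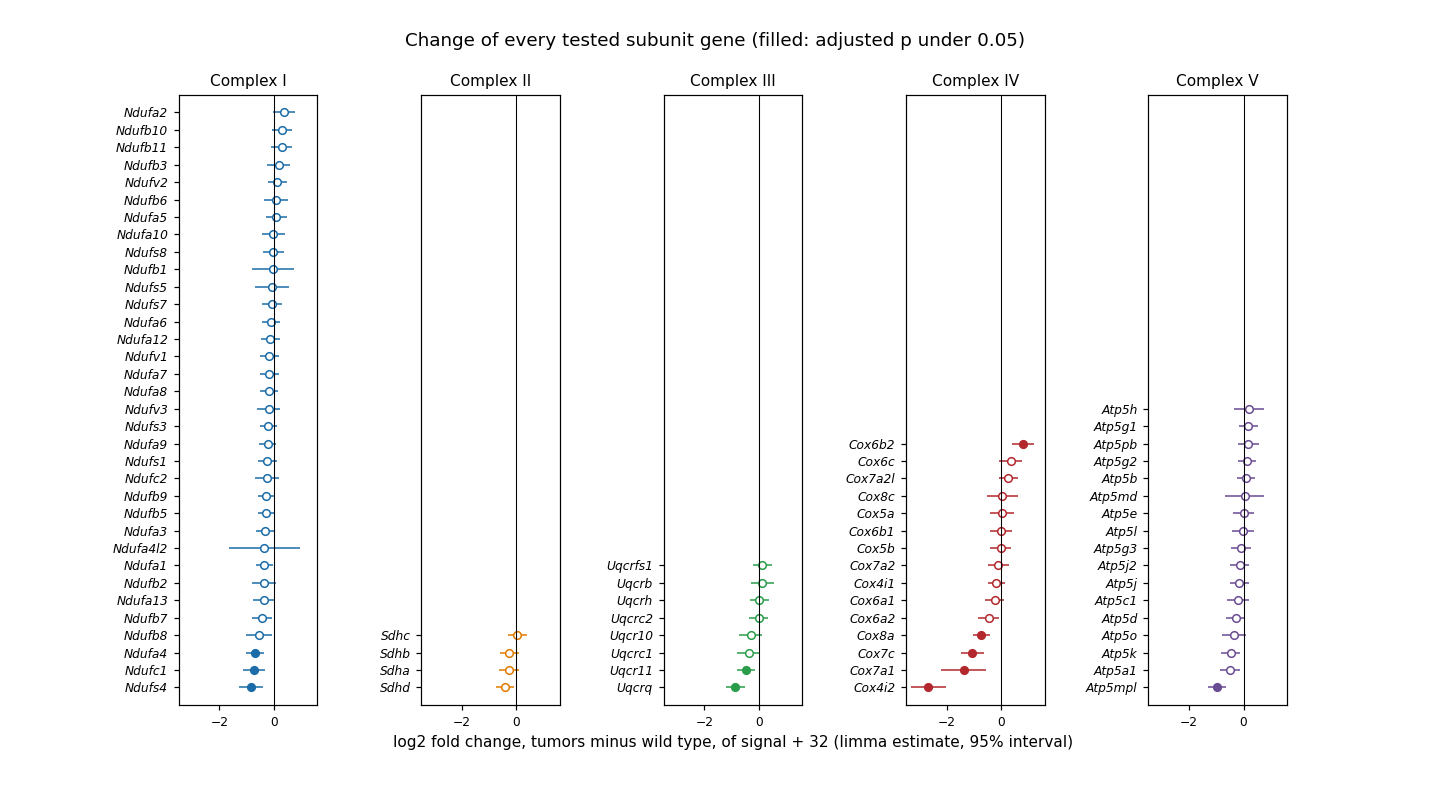
Log2 fold change of signal + 32 (x axis, tumors minus wild type) for each of the 78 tested subunit genes, by complex, with limma's 95% interval as a horizontal line; filled points passed an adjusted p of 0.05. Most points sit within 0.5 of zero, and Cox4i2 at -2.69 lies farthest from it.

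In 47 of the 78, the signals of tumors and wild-type samples overlapped. The 3 tumors lay below all wild-type samples in 26 members (33.3%; 22.6% of all genes tested) and above them in 5 (6.41%; 23.7%). Across members, the median difference from the wild-type mean was -0.00161, -0.105 and 0.113 on the wild-type arrays of replicates 1, 2 and 3 and -0.258, -0.165 and -0.0897 on those of tumors 1, 2 and 3. Wild-type replicate 2 was therefore slightly below tumor 3, and the medians of the groups overlapped. The standard deviation of a member's log2 value within a group had a median of 0.142 in wild type and 0.159 in tumors, against 0.185 and 0.238 over all genes tested.

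**Figure D2:**
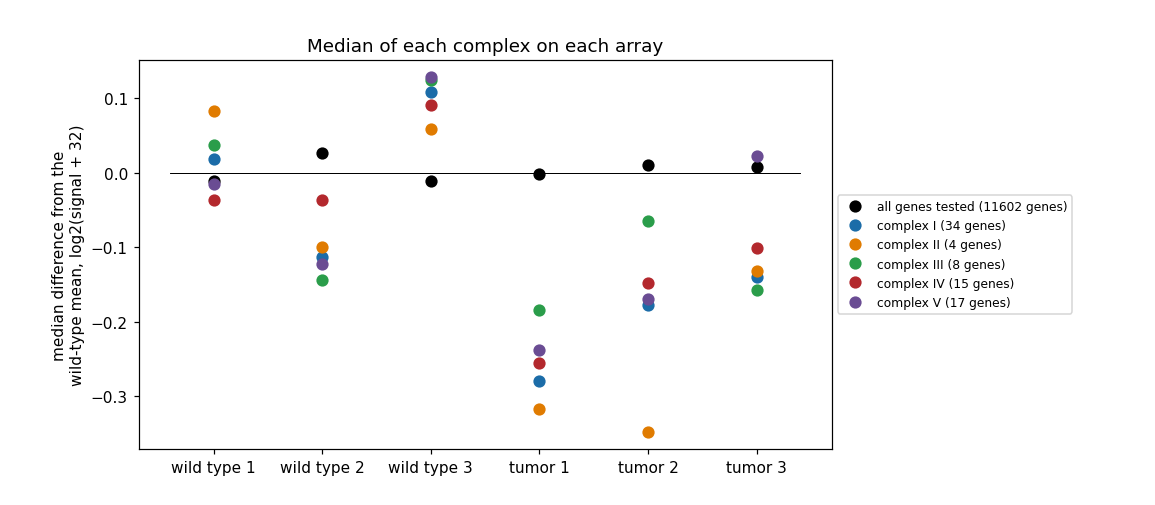
Median difference from the wild-type mean in log2(signal + 32) (y axis) over the tested genes of each complex and over all genes tested, on each of the 6 arrays (x axis). Medians of complexes I to IV are below zero on all tumor arrays, but wild-type replicate 2 also lies below zero, and complex V on tumor 3 is at 0.0219.

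These values rest on array scaling and on few arrays. All arrays had a deposited trimmed mean of 500, and 22599 to 25057 of 45101 probe sets reached 100. The bacterial hybridisation controls had a mean log2 signal of 11.1 to 11.4 on wild-type arrays and 11.9 to 12.7 on tumor arrays. Scaling to them instead therefore lowered all genes in tumors together. The median of all genes was then at -1.0 and that of the members at -1.22. Of the members 74 were lower (94.9%) and 0 higher, and of all genes 7796 were lower (66.2%) and 376 higher (3.20%). The members' median went from -0.23 without tumor 3 to -0.09 without wild-type replicate 3. Without 1 sample at a time, 5 to 10 members were lower. Leaving out wild-type replicate 1 or wild-type replicate 3 gave the count of 5 (6.41% of members). The share of all genes that were lower was then 5.72% and 7.60%, in that order. Cox6b2 lost its call without wild-type replicate 1 or 2, which left 0 members higher (against 7.50% and 11.2% of all genes). As a measure of RNA integrity, the 3′ control probe set of Actb was set over its 5′ one. The log2 of this ratio was 0.447 ± 0.193 (SD, n = 3) in wild type and 0.808 ± 0.209 in tumors, and for Gapdh it was -0.391 ± 0.0653 and -0.365 ± 0.113; their part in the members' values was not tested. In tissue, fewer cells of a type and less RNA per cell cannot be told apart.

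Complex I, NADH dehydrogenase, is the largest complex and the entry point for electrons from NADH. Of its 35 members 34 were tested, with 3 lower, 0 higher and 31 not called, and a median log2 fold change of -0.19 (-0.10 without wild-type replicate 3). The lower genes were 8.82% of those tested, against 12.6% lower and 14.5% higher over all genes tested. The measured nuclear core subunits were not called. Ndufv1, which binds NADH and the flavin, had log2 fold change -0.16, Ndufv2 0.13, Ndufs1, the large iron-sulfur subunit, -0.24, Ndufs3 -0.20, Ndufs7 -0.07 and Ndufs8 -0.03. Ndufs8, an iron-sulfur subunit with the highest mean signal in the complex, read 10686, 10316 and 11267 in wild type and 8793, 12103 and 11047 in tumors. The 3 tumors straddled the wild-type values, and the 95% interval of the change ran from -0.41 to 0.36. Its 5 other passing probe sets were all lower in estimate, from -0.72 to -0.42, none called, and in 4 of them every tumor was below every wild-type sample. Dimmer probe sets of Ndufv1 had -0.33 and -0.37, of Ndufv2 -0.02 and -0.51 and of Ndufs7 -0.20, none called.

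The called members under complex I were Ndufs4, Ndufc1 and Ndufa4. Ndufs4, an accessory subunit needed for a stable, active complex and the gene deleted in a widely used mouse model of Leigh syndrome, read 5969, 4885 and 6126 in wild type and 2801, 2836 and 3911 in tumors. All tumors were below all wild-type samples, with means of 5660.1 ± 676 and 3183 ± 631 (SD, n = 3), log2 fold change -0.83 (SE 0.19, limma adjusted p = 0.0179). The other probe sets of Ndufs4 that passed the filter went the same way, at -0.95 and -0.98, each called when probe sets were tested singly. Ndufc1, a small membrane-arm subunit, read 9076, 7149 and 10126 in wild type and 5151, 5118 and 5459 in tumors (log2 fold change -0.73, SE 0.17, limma adjusted p = 0.0196), and its other probe set had -0.96. Ndufa4, named for complex I but now known to be part of complex IV, read 6088, 5683 and 6207 against 4068, 3339 and 3728 (log2 fold change -0.69, SE 0.14, limma adjusted p = 0.0134). The tumor signals of Ndufc1 lay close together while its wild-type signals were spread (SD 188 and 1510.0).

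Calls of these genes depended on single samples. Ndufs4 and Ndufc1 lost theirs without wild-type replicate 1, wild-type replicate 3 or tumor replicate 2 (highest adjusted p 0.0733 and 0.0805). Ndufa4 lost its call without wild-type replicate 1 (0.0614) or 3 (0.0511) and after scaling to the array medians (0.0545). All 3 genes kept a negative estimate under each of 17 alternatives. In the other direction, Ndufa2, an accessory subunit of the NADH-binding arm, had the highest estimate of complex I. It read 4666, 3592 and 5135 in wild type and 5392, 6128 and 5828 in tumors; the groups did not overlap, and the change did not pass (log2 fold change 0.38, SE 0.17, limma adjusted p = 0.145; 0.24 without wild-type replicate 2). For Ndufb10 (0.31) and Ndufb11 (0.29), subunits of the membrane arm, each tumor also exceeded each wild-type sample, and neither passed; in a dimmer Ndufb11 probe set each tumor was below each wild-type sample (-0.27). Ndufb4 stayed near background, at 62.4, 34.1 and 107 in wild type and 3.3, 62.0 and 42.7 in tumors, and was not tested.

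Complex II, succinate dehydrogenase, is also an enzyme of the citric acid cycle, and its genes act as tumor suppressors in some human tumors. All 4 genes were tested and 0 were called in limma (1 had an unadjusted p under 0.05), with a median of -0.27. Over all genes tested, 12.6% were lower and 14.5% higher. Sdhd, a membrane anchor, came closest. It read 3591, 3120.1 and 3330 in wild type and 2444, 2401 and 2667 in tumors, without overlap, log2 fold change -0.41 (SE 0.14, 95% interval -0.74 to -0.09, limma adjusted p = 0.0628). Sdhd was called lower with a filter at 200, quantile normalization, scaling to the hybridisation controls, or an intensity trend and robust prior in limma. A dimmer Sdhd probe set had 0.04. Sdha, the flavoprotein that oxidises succinate, read 5941, 5602 and 6551 against 4965, 4405 and 5702 (log2 fold change -0.27, 95% interval -0.64 to 0.10), with -0.18 without tumor 2, and a dimmer probe set had -0.07. Sdhb, the iron-sulfur subunit, read 6882, 5738 and 7130 (wild type) and 5108, 5515 and 5751 (tumors), log2 fold change -0.26. Sdhc, the other anchor, read 3476, 3201 and 3094 (wild type) and 3710, 3033 and 3322 (tumors), with 0.04; it had -0.03 without tumor 1, -0.32 in a dimmer probe set and -1.0 scaled to the hybridisation controls. The tumor and wild-type signals of Sdha, Sdhb and Sdhc overlapped.

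Complex III, the cytochrome bc1 complex, moves electrons from coenzyme Q to cytochrome c. Its 8 members were all tested, with 2 lower, 0 higher and a median of -0.15 (-0.26 without wild-type replicate 2, -0.065 without wild-type replicate 3, -0.09 without tumor 1). The 2 lower genes were 25% of these few members, against 12.6% lower and 14.5% higher over all genes tested. Uqcrq, a small accessory subunit, had a called change that held under all 17 alternatives (highest adjusted p 0.0416). It read 6135, 5322 and 6415 in wild type and 3120, 3666 and 3063 in tumors, means of 5957 ± 568 and 3283 ± 333 (SD, n = 3) and log2 fold change -0.85 (SE 0.15, limma adjusted p = 0.00801). Every tumor was below every wild-type sample. Uqcr11, another small subunit, read 4624, 4045 and 4990 against 3279, 3280 and 3183, log2 fold change -0.48 (SE 0.14, limma adjusted p = 0.0446). That call was lost in 8 of 17 alternatives, among them the fits that left out any 1 sample except wild-type replicate 2, and those with the replicate number as a block (adjusted p = 0.0912), with no filter (0.102) and scaled to the array medians (0.166).

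The catalytic and core members of complex III were not called. Cytochrome c1 of this complex (Cyc1), which the rule did not select, had -0.07 and did not pass. Uqcrfs1, the Rieske iron-sulfur protein, read 4150, 3776 and 3550 in wild type and 4135, 4654 and 3774 in tumors (log2 fold change 0.13, 95% interval -0.22 to 0.48; 0.05 without tumor 2). Uqcrc1, a core protein, read 5979, 4958 and 6405 against 5050, 4550 and 3802 (log2 fold change -0.37, limma adjusted p = 0.157), and its partner Uqcrc2 had 0.000578. In the other passing Uqcrc2 probe set each tumor exceeded each wild-type sample, with 0.54 that did not pass (limma adjusted p = 0.132 over probe sets). Uqcrb, with the highest mean signal of the complex, read 17917, 19409 and 20307 against 17720, 19765 and 26042; tumor 3 was the highest, the groups overlapped, and the estimate went from 0.12 to -0.04 without tumor 3.

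Complex IV, cytochrome c oxidase, held both the lowest and the highest estimates of all members. Of 17 genes 15 were tested, 4 lower, 1 higher and 10 not called, with a median of -0.10 (-0.20 without tumor 3, -0.18 without wild-type replicate 2, -0.02 without tumor 1, 0.00383 without wild-type replicate 3). Thus 26.7% were lower and 6.67% higher, against 12.6% and 14.5% of all genes tested. Ndufa4, grouped by its symbol under complex I, is not counted here. The 9 genes with a mean signal of at least 2000 had a median of -0.02, with 1 lower. The 6 tested genes below that signal had a median of -0.76, with 3 lower and 1 higher. These 6 include Cox4i2, kept by the signal filter only through wild type, and Cox7a1 and Cox6a2, each with tumor signals below 100. Their median and counts are therefore a description, and no contrast with the brighter genes is drawn. Cox4i2, the alternative form of subunit 4 that is known to respond to oxygen and to be abundant in lung, read 355, 569 and 254.5 in wild type and 30.5, 38.3 and 25.1 in tumors. All tumors were below a signal of 100 and all wild-type samples above it, so Cox4i2 passed the signal filter only through its wild-type signals. It was at least 3.72-fold lower in tumors, from the mean log2 wild-type signal against tumors set at 100, and its log2 fold change was -2.69 (SE 0.27, limma adjusted p = 0.00117). Since it entered the test only through the group where it is high, that call is a description of these signals, and the estimate, which depends on the pseudocount, ranged from -3.55 to -1.86 over the 17 alternatives. Cox4i1, the form of subunit 4 in most tissues, read 16854, 17126 and 17223 in wild type and 14065, 15314 and 15902 in tumors. Its tumors were also all below wild type, but the log2 fold change was -0.18 (SE 0.13, 95% interval -0.49 to 0.13, limma adjusted p = 0.349).

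Forms known from heart and skeletal muscle were dim throughout. Cox7a1 read 236, 313 and 324 in wild type and 131, 36.9 and 135 in tumors, log2 fold change -1.38 (SE 0.35, limma adjusted p = 0.0272), with tumor 2 below 100. The Cox7a1 call was lost with any 1 of the wild-type samples left out (highest adjusted p 0.0834) and with no filter (0.0564). Its paralog Cox7a2, found in most tissues, read 16101, 14675 and 19063 against 13826, 14905 and 17765, overlapping groups with log2 fold change -0.10 (95% interval -0.50 to 0.30; 0.00383 without wild-type replicate 3). A second Cox7a2 probe set read 9889, 8967 and 10987 against 6273, 7092 and 7592, without overlap, and did not pass (-0.51, limma adjusted p = 0.0577 over probe sets). Cox6a2 read 149, 119.9 and 122 in wild type and 75.6, 102.5 and 79.6 in tumors (log2 fold change -0.46, SE 0.16, limma adjusted p = 0.0683). Its paralog Cox6a1 had the highest mean signal of the complex, at 20032, 22449 and 24933 against 18171, 18973 and 19991, and log2 fold change -0.23 (limma adjusted p = 0.270). A second Cox6a1 probe set had -0.69 and was called when probe sets were tested singly (limma adjusted p = 0.0287). Of 12 striated muscle markers, 8 were below 100 on every array, 0 of the 2 tested were called in limma (both had an unadjusted p under 0.05), and their summed signal was 451 to 633 in wild type and 538 to 761 in tumors.

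Cox8b, the muscle and brown fat form of subunit 8, was not tested. It read 27.2, 19.7 and 37.6 in wild type and 85.7, 15.1 and 157.5 in tumors, so only tumor 3 passed 100. Tumor 2 was lowest for adipocyte markers too: Adipoq, the gene of the hormone adiponectin, read 8447, 52.6 and 8410 in tumors 1, 2 and 3 and at most 25.3 in wild type. The summed adipocyte markers ran from 4148 to 5958 in wild type and from 2002 to 31295 in tumors; a link of Cox8b to them was not tested. Cox8a, the form in most tissues, was lower and kept its call under all 17 alternatives (highest adjusted p 0.0452). It read 5119, 4901 and 5241 in wild type and 3241, 3084 and 2876 in tumors, means of 5087 ± 173 and 3067 ± 183 (SD, n = 3) and log2 fold change -0.73 (SE 0.13, limma adjusted p = 0.00877). Its other passing probe set had -0.70.

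**Figure D3:**
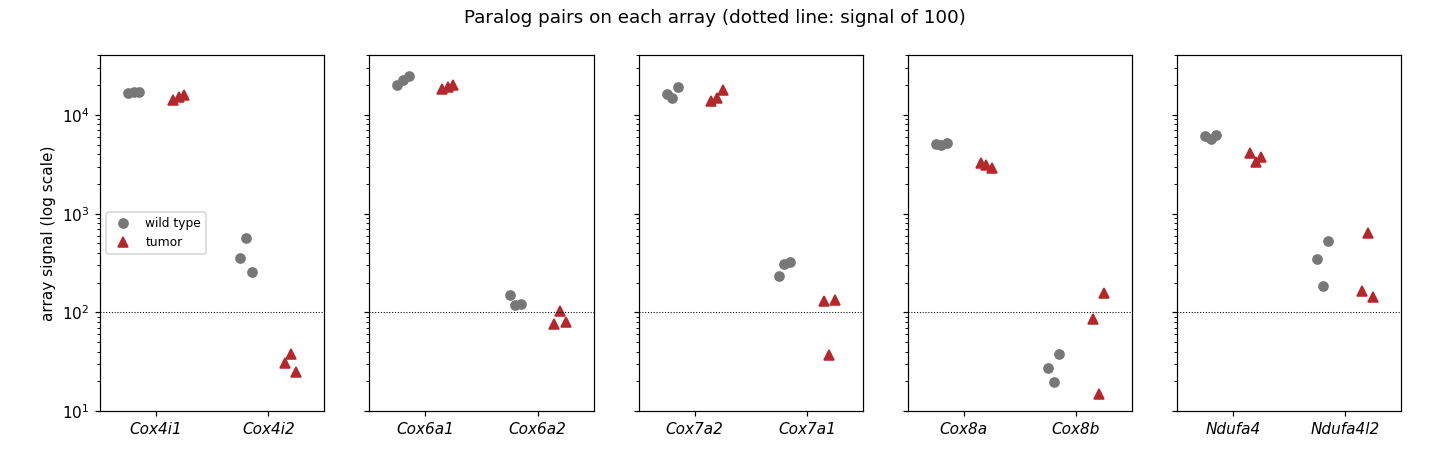
Array signal on a log scale (y axis) of 5 paralog pairs, the form of most tissues on the left of each panel and its restricted paralog on the right, with circles for wild-type samples and triangles for tumors; signals of different probe sets do not compare transcript levels. The tumor signals of Cox4i2 (25.1 to 38.3) lie below the dotted line at 100 and those of Cox4i1 run from 14065 to 15902, against 16854 to 17223 in wild type.

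Cox6b2, a form of subunit 6b known from testis, was the member called higher. It read 299, 291 and 327 in wild type and 508, 480.0 and 698 in tumors, means of 305 ± 19.2 and 562 ± 119 (SD, n = 3) with log2 fold change 0.80 (SE 0.18, limma adjusted p = 0.0170). No tumor overlapped wild type. Scaled to the hybridisation controls its estimate turned to -0.17 (adjusted p = 0.652). Its paralog Cox6b1 had 0.00514 and, in a dimmer probe set, -0.27, both with overlapping groups. Testis germ cell markers were not called (0 of 3 tested in limma, and 0 with an unadjusted p under 0.05; 4 of 8 below 100 on every array), with summed signals of 256 to 1511 in wild type and 192 to 1288 in tumors. Cox7c, a small subunit, was measured by dim probe sets alone, the brighter at 428, 561 and 463 in wild type and 177, 214 and 258 in tumors (log2 fold change -1.06, SE 0.18, limma adjusted p = 0.00697). That call held under all 17 alternatives, and the other probe set had -0.74 (limma adjusted p = 0.0508 over probe sets). Cox7a2l, which joins complexes III and IV into supercomplexes, had tumors above wild type with log2 fold change 0.27 that did not pass. Cox7b2 stayed below 100 on every array.

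Ndufa4l2, the paralog of Ndufa4 known as a target of hypoxia-inducible factor and abundant in pericytes, varied widely within groups. It read 351, 185 and 533 in wild type and 166, 632 and 143 in tumors, and the interval of its log2 fold change ran from -1.67 to 0.98; the estimate was -0.96 without tumor 2 and 0.00633 without tumor 3. Pericyte and smooth muscle markers were higher in tumors, 11 of 11 tested, but Cspg4, Des and Kcnj8 among them were below 100 in every wild-type sample and entered the test only through the tumors. The 12 markers on the array had a summed signal of 4719 to 6178 in wild type and 17638 to 34135 in tumors. Macrophage markers were higher in 10 of 10, endothelial in 5 of 10 and fibroblast in 8 of 9. Over all genes tested, 14.5% were higher and 12.6% lower. Granulosa markers were lower in 3 of 9 and higher in 1, with summed signals of 121088 to 138402 and 83159 to 96166. Their part in the values of the subunit genes was not tested.

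**Figure D4:**
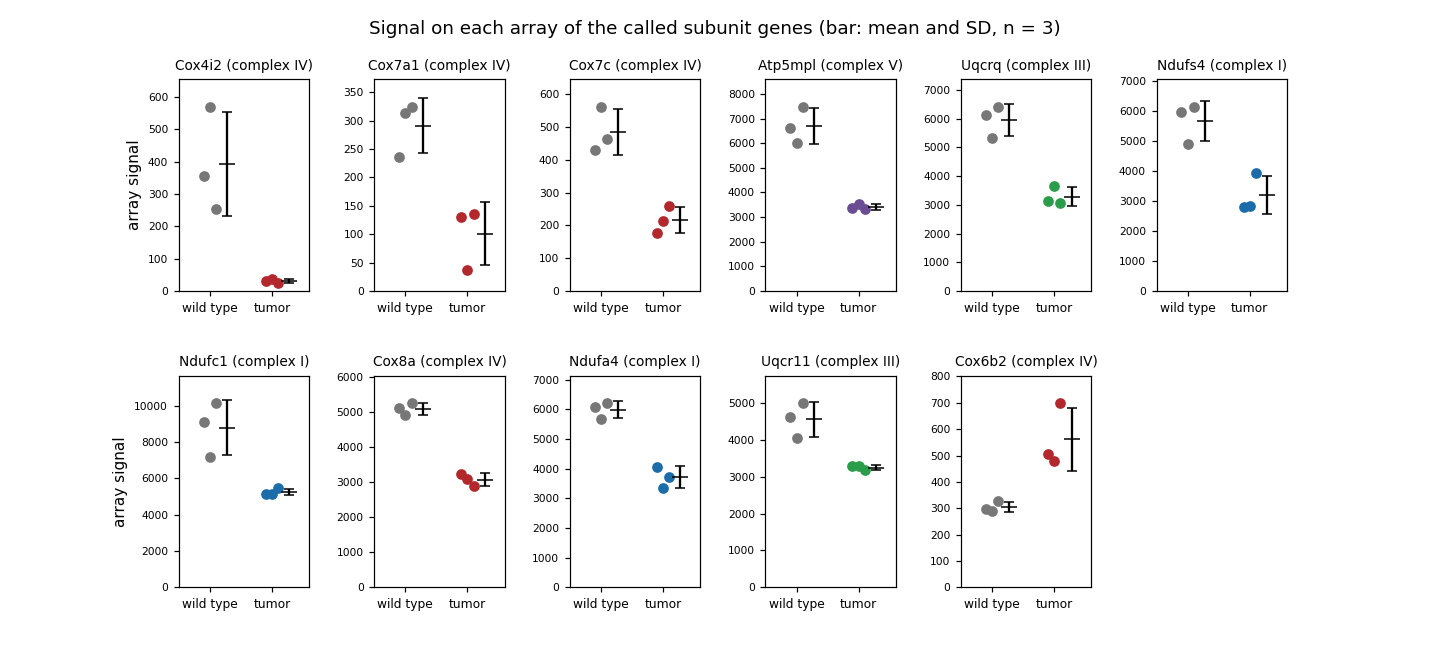
Array signal (y axis, from 0) of the 11 subunit genes that passed an adjusted p of 0.05, 1 point per array, with the group mean and SD (n = 3) beside the points. In each panel the tumors and the wild-type samples do not overlap. Since the genes were chosen by that test, this is a description and adds no support.

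Complex V, the ATP synthase, had 17 tested genes, of which 1 was lower and 16 were not called, with a median of -0.10 (-0.21 without tumor 3, -0.16 without wild-type replicate 2, -0.04 without wild-type replicate 3, -0.03 without tumor 1). The lower gene was 5.88% of these, against 12.6% lower and 14.5% higher over all genes tested. Atp5mpl, a small subunit of the membrane part, read 6601, 6026 and 7475 in wild type and 3360, 3535 and 3314 in tumors. Its means were 6701 ± 730 and 3403 ± 117 (SD, n = 3), without overlap (log2 fold change -0.97, SE 0.14, limma adjusted p = 0.00429), and it held its call under all 17 alternatives (highest adjusted p 0.0243). Subunits of the catalytic head were not called. Atp5b, the catalytic beta subunit, had 0.09 and Atp5c1, the rotating gamma subunit, -0.22, both with overlapping groups. A dim Atp5c1 probe set read 486, 472 and 215 in wild type and 205, 173 and 182 in tumors, without overlap (-0.88, limma adjusted p = 0.0687 over probe sets), and Atp5c1 was called lower with the mean over its probe sets. Atp5a1, the alpha subunit, read 15192, 14007 and 14832 in wild type and 11495, 8671 and 11125 in tumors (log2 fold change -0.50, SE 0.16, limma adjusted p = 0.0556). Its tumors were all below wild type, but dimmer Atp5a1 probe sets had 0.07 and 1.05, neither called.

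Atp5k, a membrane subunit at the dimer interface, read 8418, 7684 and 9410 against 5748, 6013 and 6542, without overlap (log2 fold change -0.47, SE 0.15, limma adjusted p = 0.0502). Both Atp5a1 and Atp5k passed with a pseudocount of 100, a filter at 200, quantile normalization, scaling to the hybridisation controls, or an intensity trend in limma. The c-ring genes, which encode the same mature protein from separate loci, did not pass: Atp5g1 had 0.17, Atp5g2 0.13 (-0.02 in a dim probe set) and Atp5g3 -0.10 (-0.21 without tumor 3). Atp5g3, the member with the highest mean signal of the complex, read 21366, 22172 and 24860 in wild type and 19189, 20216 and 24430.4 in tumors. Atp5h, a stalk subunit, had the highest estimate of complex V at 0.20, but 1 sample turned its direction: it had -0.01 without tumor 3 and 0.39 without tumor 1. It had -0.85 scaled to the hybridisation controls and -0.09 in its other passing probe set. It read 11286, 10114 and 13144 against 10146, 12663 and 17696; tumor 3 lay above and tumors 1 and 2 within the wild-type range.

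Genes that build, feed and regulate the chain were taken from fixed lists. Over all genes tested, 12.6% were lower and 14.5% higher, and the counts below are to be read beside these shares. Assembly factors of complex I were lower in 2 of 13, of complexes II and III in 1 of 9, of complex IV in 2 of 16 with 1 higher, and of complex V in 0 of 4 (0 had an unadjusted p under 0.05 in limma). Timmdc1, an assembly factor of complex I, read 805, 810.5 and 969 in wild type and 348, 430.2 and 382 in tumors (log2 fold change -1.09, SE 0.15, limma adjusted p = 0.00357). Ttc19, which acts on complex III, read 1153, 1663 and 901 against 499.5, 275 and 278, log2 fold change -1.74 (SE 0.30, limma adjusted p = 0.00712). Sco2, a copper chaperone of complex IV, rose from 330.0, 411 and 246 to 871, 819 and 548 (log2 fold change 1.11, SE 0.24, limma adjusted p = 0.0166), and Pet100, another assembly factor of that complex, had -0.75 (SE 0.15, adjusted p = 0.0129). Sco2 lost its call without wild-type replicate 1 (0.0582) or 3 (0.0528) and scaled to the hybridisation controls (0.746), and Pet100 without wild-type replicate 1 (0.0505). Atpaf2, of complex V, had the smallest p of its list, with log2 fold change -0.34 that did not pass (limma adjusted p = 0.152).

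Most genes of enzymes upstream of the chain were not called. Of 18 citric acid cycle and pyruvate entry genes, 2 were higher, 1 was lower and 15 were not called, with a median of 0.02. The shares over all genes tested were 14.5% higher and 12.6% lower. Idh2, the mitochondrial isocitrate dehydrogenase that makes NADPH, rose from 2341, 2443 and 2340.2 to 3775, 4306 and 4561 (log2 fold change 0.81, SE 0.14, limma adjusted p = 0.00713). Idh2 did not pass with the mean over its probe sets (0.108) and had -0.22 scaled to the hybridisation controls. Pcx, pyruvate carboxylase, fell from 1273, 1173 and 1345 to 799, 259.5 and 353 (log2 fold change -1.51, SE 0.36, limma adjusted p = 0.0219); leaving out any 1 wild-type sample, or tumor replicate 3, ended this call (highest adjusted p 0.0720). Of 17 genes of electron carriers and coenzyme Q synthesis, 2 were lower, among them Coq3 at -0.65 (SE 0.19, limma adjusted p = 0.0397), which lost its call when any 1 sample except wild-type replicate 2 was left out. Cytochrome c itself, Cycs, had -0.29 and did not pass.

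Regulators of mitochondrial number were not called. Of 17 tested genes of mitochondrial biogenesis 0 passed in limma (1 had an unadjusted p under 0.05), with a median of 0.05; Ppargc1b, a coactivator, had the smallest p, at 0.83 (limma adjusted p = 0.122; leaving out wild-type replicate 1 gave 0.43, and leaving out wild-type replicate 2 gave 1.05), and Tfam, which packages mitochondrial DNA, had 0.15. Ppargc1a stayed below 100 on every array. Of 19 genes of mitochondrial mass and protein import, 1 was higher and 1 lower, beside 14.5% higher and 12.6% lower over all genes tested. Hspa9, the import motor chaperone, rose by 0.69 (SE 0.17, limma adjusted p = 0.0256). Immt, which shapes the cristae where the complexes sit, had -0.46 (SE 0.13, limma adjusted p = 0.0413). Hspa9 had -0.35 scaled to the hybridisation controls and lost its call without wild-type replicate 1 or 2 or tumor replicate 1 or 2 (highest adjusted p 0.0741), and Immt whichever 1 of the 6 samples was left out (highest 0.114). Of 3 tested ADP, ATP and phosphate carrier genes 0 were called in limma (0 had an unadjusted p under 0.05); Slc25a4, an ADP/ATP carrier, had -0.13 (limma adjusted p = 0.544; from -0.23 without wild-type replicate 2 to -0.07 without wild-type replicate 1).

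Promoters of the members were read from RefSeq (GRCm38.p6), from 250 bases before to 50 after the transcription start, and were found for 66 of the 81 genes. Nuclear respiratory factor 1 (NRF1), ETS factors such as GABP, and YY1 are known regulators of respiratory genes. On either strand, the NRF1 letters, GCGCA, then any base, then GCGC, stood in promoters of 15 of 66 members (22.7%), against 11.7% of all tested genes with a promoter in the table and 5.19% of all genes in it. The ETS core CCGGAAG stood in 17 members (25.8%, against 20.2% and 9.93%) and the YY1 core AAGATGGCG in 6 (9.09%, against 3.62% and 1.64%). These motifs can overlap, a match is not a binding site, and no binding was measured here. Of the 7 lower genes with a promoter in the table, 0 held the NRF1 letters, 2 the ETS core and 2 the YY1 core. Among members not called, 14 of 55 (25.5%) held the NRF1 letters, so most of these lacked them too. The 250 bases upstream of 4 complex III and IV genes follow, 5′ to 3′ on the gene's strand, with NRF1 and ETS matches in capitals. They are examples and do not stand for their groups. Cox6a1 is bright and not called in the main fit, but was called lower with quantile normalization or the mean over probe sets. Uqcr11 and the dim muscle form Cox7a1 were lower, and Cox6b2 was the gene called higher.
Cox6a1 (chr5:115348959-115349208, minus strand): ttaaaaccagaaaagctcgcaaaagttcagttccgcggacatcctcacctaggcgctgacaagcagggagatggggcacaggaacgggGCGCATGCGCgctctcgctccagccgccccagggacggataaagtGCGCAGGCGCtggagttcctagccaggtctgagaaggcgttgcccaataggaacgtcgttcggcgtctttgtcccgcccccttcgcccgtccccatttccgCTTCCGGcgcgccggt
Uqcr11 (chr10:80406822-80407071, minus strand): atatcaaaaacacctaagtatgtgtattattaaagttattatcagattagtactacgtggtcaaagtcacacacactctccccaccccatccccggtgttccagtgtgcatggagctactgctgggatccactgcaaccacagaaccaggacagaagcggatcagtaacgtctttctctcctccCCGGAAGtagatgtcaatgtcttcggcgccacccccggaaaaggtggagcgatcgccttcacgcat
Cox7a1 (chr7:30183921-30184170, plus strand): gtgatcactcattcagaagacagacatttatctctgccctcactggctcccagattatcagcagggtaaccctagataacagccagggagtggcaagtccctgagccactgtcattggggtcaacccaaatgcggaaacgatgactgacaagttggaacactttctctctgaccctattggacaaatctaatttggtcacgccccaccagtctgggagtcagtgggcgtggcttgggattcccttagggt
Cox6b2 (chr7:4753095-4753344, minus strand): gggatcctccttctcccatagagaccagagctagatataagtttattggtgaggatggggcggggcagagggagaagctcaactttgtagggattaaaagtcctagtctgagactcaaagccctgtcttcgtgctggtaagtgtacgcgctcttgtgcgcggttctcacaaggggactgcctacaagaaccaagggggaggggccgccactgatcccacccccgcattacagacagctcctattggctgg

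Cox6a1 held 2 matches to the NRF1 letters and 1 to the ETS core in this window and Uqcr11 1 ETS match, while Cox7a1 and Cox6b2 held none of the 3 motifs. The lower complex I genes Ndufs4 and Ndufc1 each held the YY1 letters just after the transcription start, shown here in capitals with their flanks.
Ndufs4 (chr13:114388045-114388065, minus strand): tacaggAAGATGGCGgcggtc
Ndufc1 (chr3:51408919-51408939, minus strand): cggaacAAGATGGCGccgtcc
Among members that were not called, 4 of 55 with a promoter in the table also held these YY1 letters, so the letters were present in promoters of genes that passed and of genes that did not.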

How the data were processed

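The authors deposited 1 linear intensity (signal) for each probe set and array, made with MAS5 (wild type) or GCOS (tumors) per the submitters' processing notes, which name no version. The trimmed mean was 500 on every array, leaving out 2% at each end. Of 45101 probe sets, 34945 carried 1 gene symbol in GEO's platform annotation, 932 several, 9160 none and 64 were controls. Each gene was represented by its brightest probe set on average and kept at a signal of at least 100 on 3 of 6 arrays (11602 genes). log2(signal + 32) was fitted in R 4.3.3 using lmFit and eBayes of limma 3.58.1 (2-sided, Benjamini-Hochberg over all genes tested). The fit was tried on simulated data of 11602 genes. Of these only 67, 67 and 66 were changed, by a log2 size of 0.5, 1 and 2. It recovered 0 of 67 changes of size 0.5, 21 of 67 of size 1 and 52 of 66 of size 2, with 2 false calls. In the data 27.2% of genes were called, which makes the adjusted cutoff looser than in the simulation, so these rates do not carry over. A change of about 0.5 was called in Uqcr11 (-0.48) but not in Atp5a1 (-0.50). Such a change in a gene that was not called could thus have been missed. Tables and figures used Python 3.11.15, pandas 2.3.3 and matplotlib 3.10.9. Beyond pooling and the word independent, the labels do not say how samples were kept apart, so p-values reflect only the spread between these samples. Alternatives covered pseudocount, filter, scaling, probe set choice, a replicate block, the prior and each sample left out. Members and lists were chosen with earlier results of these data known. Named genes were, per complex, the 3 largest changes, the largest in the other direction and the brightest, the paralog pairs, and from each list the largest called change in each direction or else the smallest p; other genes were chosen after their values were seen. The number of arrays limits precision.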

Additional observations from a re-analysis of the deposited data

How the results depend on the processing

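Over 17 alternatives, 1 sample left out at a time among them, the calls of Cox7c, Cox8a, Uqcrq and Atp5mpl were kept in each; Cox4i2 was also called in each, but entered the test only through wild type. With an intensity trend and robust prior, 16 members were lower (20.5%, against 13.7% of all genes tested). Scaled to the hybridisation controls, which lowers all genes in tumors together, 0 members were higher and 74 lower (94.9%). All genes split into 376 higher (3.20%) and 7796 lower (66.2%). The median was -1.22 over members, -1.24, -1.31, -1.19, -1.15 and -1.15 for complexes I to V and -1.0 over all genes. All 78 tested members had a negative estimate there. Genes that turned negative included Cox6b2 (-0.17), Hspa9 (-0.35), Idh2 (-0.22), Atp5h (-0.85), Sdhc (-1.0), Uqcrb (-0.93) and Uqcrfs1 (-0.91). Scaled to the array medians, 916 of all genes were lower, and the medians were -0.064 over members, -0.087 for complex I, 0.000535 for complex IV and 0.091 over all genes. The median of complex IV was -0.27 after quantile normalization, and with the mean over passing probe sets complexes III and IV stood at -0.30 and -0.30 and all genes at -0.050. With no filter the median of all genes was -0.021. Without 1 sample, members called lower ranged from 5 to 10 and higher from 0 to 1, all genes from 870 to 1703 higher and from 664 to 1407 lower, and medians from -0.23 to -0.09 (members), -0.23 to -0.10 (complex I), -0.34 to -0.21 (complex II), -0.26 to -0.065 (complex III), -0.20 to 0.00383 (complex IV) and -0.21 to -0.03 (complex V). The causes were not tested. The samples share only replicate numbers (same-numbered deviations correlated at -0.0441, 0.0280 and 0.0908). With the replicate block, 9 members were lower (11.5%, against 9.85% of all genes) and 1 higher (1.28%, against 12.7%). Uqcr11, Coq3, Hspa9 and Immt lost their calls there. With all 6 samples, 19 of 78 members (24.4%) had an unadjusted p under 0.05, 18 of them lower, against 40.2% of all genes tested.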

Other observations

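The mitochondrial genome is represented among single-symbol probe sets by ND5, a complex I subunit that the rule did not select, chosen after its values were seen. ND5 read 14197, 31940.1 and 14062 in wild type and 32618, 43149 and 38715 in tumors. All tumors were above all wild-type samples, wild-type replicate 2 standing close to tumor 1, and the log2 fold change of 1.03 (SE 0.33) did not pass (limma adjusted p = 0.0566). Without wild-type replicate 2 it was 1.42 (limma adjusted p = 0.00788), and scaled to the hybridisation controls -0.018. The nuclear complex I genes had a median of -0.19 in the same comparison, and the difference from ND5 was not tested.

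Several members had probe sets that differed. Of 43 members with over 1 passing probe set, 15 had estimates of opposite sign and 0 had calls in opposite directions. Cox5b, not called by its brightest probe set (-0.02), had a dim one that was called but passed the filter only through wild type, with signals of 267, 330.2 and 224 in wild type and 76.4, 82.0 and 57.7 in tumors. Ndufa3 had -0.32 by its brightest probe set and -0.53, called, by another (limma adjusted p = 0.0331 over probe sets).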
